A study of Arabidopsis thaliana with 8 samples.

Results

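Transcript levels of Arabidopsis thaliana embryos from the cross Q0990 x bdl were compared between 6 and 3 days after pollination. The values are the Q0990 x bdl channel of 8 long-oligonucleotide 2-colour microarrays, 4 from day 6 and 4 from day 3, and so 8 of the 16 channel signals of the series. They were chosen by the array titles and the channel alone. The other channel of each array held same-day embryos from Q0990 pollinated with Col-0. Q0990, a GAL4 enhancer trap line, was the seed parent in both crosses, and bdl or the wild type Col-0 gave the pollen. All embryos therefore carried Q0990 on the maternal side in both crosses and at both times, and the labels give Col-0 as the ecotype throughout. The bdl line is the source of a stabilized form of BODENLOS (BDL, also IAA12). The series text counts 4 biological replicates in each experiment and gives the same days from fertilization, and the plants grew in 16 h light and 8 h dark. The labels name isolated embryos as the tissue, with no stage by morphology and no number of embryos per sample, and the RNA was amplified before labelling.

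In Arabidopsis the early days of embryogenesis lay down the apical, vascular and root domains, and later days build cotyledons, green plastids and the oil and storage protein that feed the seedling. Auxin acts on this patterning through TIR1 and AFB receptors, which mark Aux/IAA repressors for degradation and so free ARF transcription factors. BDL is such a repressor, and it holds back MONOPTEROS (MP, also ARF5), which is needed for vascular tissue and the embryonic root. LEC1, LEC2, FUS3 and ABI3 are the main regulators of seed filling.

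Signals are normalized log2 intensities, written for replicates 1 to 4 in that order, and a log2 change is day 6 over day 3. A rise or fall given without the word fold is on this log2 scale. Of 17788 genes tested with limma, 5520 (31.0%) passed a Benjamini-Hochberg adjusted p of 0.05, which is what rose, fell and changed mean below. Of these, 2845 (16.0%) were higher on day 6 and 2675 (15%) were lower. At least 2-fold higher were 2213 (12.4%), and at least 2-fold lower were 2215 (12.5%). All list counts below stand beside the 16.0% higher and 15% lower. A count near those shares is not read as a result about its list. Among the tested genes large falls outnumbered large rises: 184 (1.03%) were at least 16-fold lower on day 6 and 47 (0.264%) at least 16-fold higher. Genes with values on 1 day only, 3716 on day 6 and 407 on day 3, were not tested and are outside these counts. The 4 signals of one day lay above the 4 of the other for 6109 genes (34.3%). The median log2 change of all tested genes was 0.068. Signals correlated at r = 0.862 to 0.963 within day 6, at 0.910 to 0.969 within day 3 and at 0.711 to 0.794 between days, across genes. Of the day 6 arrays, replicates 1 and 2 lay farthest apart on the second principal component, which held 13.3% of the variance. Without day 3 replicate 3, 3687 genes were called, 1808 of them higher. No array held both days, so the set of arrays and the day cannot be told apart.

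BDL transcript was a little higher on day 6. Its signals were 11.79, 11.52, 11.39 and 11.81 on day 6, against 10.03, 11.14, 10.53 and 11.07 on day 3, with no overlap between the days. The change was 0.94 ± 0.30 (log2, SE, adjusted p = 0.0401), and its 3 reporters gave changes of 0.93, 0.75 and 1.12. Those signals are means of the 3 reporters. The reporter with a change of 0.75 overlapped between days, with 12.51, 13.03, 12.40 and 13.11 on day 6, against 10.99, 12.75, 11.78 and 12.50 on day 3. The call was lost without day 3 replicate 1, 3 or 4 or day 6 replicate 1, 2 or 4, with changes of 0.69 to 1.12 over all 8 omissions and adjusted p of up to 0.126, and also after median centring and with all 8 signals required above the blank spots. The reporters do not separate the stabilized form from the plant's own transcript. MP signals were 12.74, 10.69, 11.85 and 11.84 on day 6, against 13.07, 12.01, 13.18 and 13.35 on day 3, and the days overlapped (log2 change -1.13 ± 0.43 SE, adjusted p = 0.0762). Without day 6 replicate 1 the MP change was -1.59 with an adjusted p of 0.00327.

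Most tested markers of tissues around the embryo fell. Of 18 tested endosperm markers, 12 fell and 1 rose, with a median log2 change of -1.98, and 11 or 12 fell with any 1 array left out. Summed over the 18, the signal ranged between 15736 and 16844 on day 6 and between 51517 and 60888 on day 3. All 18 exceeded the blank spots on all 4 day 3 arrays, and 3 of them, AGL36, AGL91 and FIS2, did so on no day 6 array. FIS2 did not pass the test of change (log2 change -0.45, adjusted p = 0.233). The blank cutoff was an intensity of 75 to 256 on day 6 and 27 to 86 on day 3. Counts of genes above the blanks therefore do not compare like for like between days. MPC, an imprinted gene expressed from the maternal copy in endosperm, had signals of 7.69, 6.85, 7.49 and 7.0 on day 6, against 13.57, 14.39, 14.15 and 14.03 on day 3 (log2 change -6.78, adjusted p = 2.44e-07). PHE1, an imprinted MADS-box gene expressed from the paternal copy, had 9.34, 8.19, 8.93 and 8.97 on day 6, against 12.18, 12.42, 12.60 and 12.61 on day 3, so it was 12.1-fold lower but still above the blank spots on every day 6 array. AGL28, another MADS-box gene, fell by 4.33 and AGL36 was at least 5.17-fold lower. ICE1, which acts in endosperm breakdown, was the 1 member that rose (log2 1.14, adjusted p = 0.00525). ALE1, a subtilase gene needed for the embryo surface, had a change of 0.96 (adjusted p = 0.171). It passed the threshold without day 6 replicate 2, with a change of 1.45 (adjusted p = 0.0245), and under the replicate block (adjusted p = 0.047).

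Of 26 tested seed coat markers, 15 fell and 2 rose (median log2 change -1.09), and their summed signal was 28751 to 32857 on day 6 and 127069 to 174488 on day 3. STK, a MADS-box gene of ovule and seed coat identity, had 7.93, 7.71, 7.99 and 7.86 on day 6, against 13.11, 14.18, 13.68 and 13.84 on day 3, a 56.8-fold difference with no overlap. TT3, the dihydroflavonol reductase of seed coat pigment, fell by 5.64 (adjusted p = 3.97e-07), BAN, the anthocyanidin reductase of the inner seed coat, fell by 3.81, and TT19, a glutathione transferase of pigment transport, fell by 3.58. All but TT16 of the 26 were above the blank spots on at least 1 day 6 array. The 2 that rose were TT10, a laccase that browns the maturing seed coat (2.13, adjusted p = 3.84e-04), and MUM4, a mucilage synthesis gene (0.92, adjusted p = 0.0467). MUM4 lost its call without day 3 replicate 2, 3 or 4 or day 6 replicate 1, 3 or 4, with changes of 0.67 to 1.12 over all 8 omissions, and also under an offset of 0 or 200 and in the separate-channel model. SBT1.7 and NARS1 had changes of -0.13 and 0.022 and overlapped between the days.

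Among 12 tested genes of flowers, flowering and pollen, 7 fell and 1 rose (median -1.53, and -0.0034 over the members above the blank spots in all 8 signals), with a summed signal of 9002 to 17702 on day 6 and 26771 to 35446 on day 3. SHP1, an ovule and carpel MADS-box gene, had 6.28, 6.85, 6.50 and 6.02 on day 6, against 12.44, 12.99, 12.58 and 12.40 on day 3. It was above the blank spots on no day 6 array and at least 39-fold lower there. SEP2 and SEP3, cofactors of floral organ identity, had changes of -4.12 and -3.9, and AP3, a petal and stamen gene, fell by 3.22. The pollen tube gene VGD1 had signals of 8.22, 8.39, 8.46 and 8.65 on day 6, against 8.37, 8.32, 8.07 and 8.97 on day 3 (adjusted p = 0.994). FLC, a repressor of flowering, rose by 1.26 (adjusted p = 0.021), a call lost without day 3 replicate 1, 2 or 3 or day 6 replicate 2 or 4 (changes of 1.02 to 1.58 over all 8 omissions). In such bulk samples, fewer cells of a type and less RNA per cell cannot be told apart. The part of these 3 marker lists in the other changes below was not tested.

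**Figure D1:**
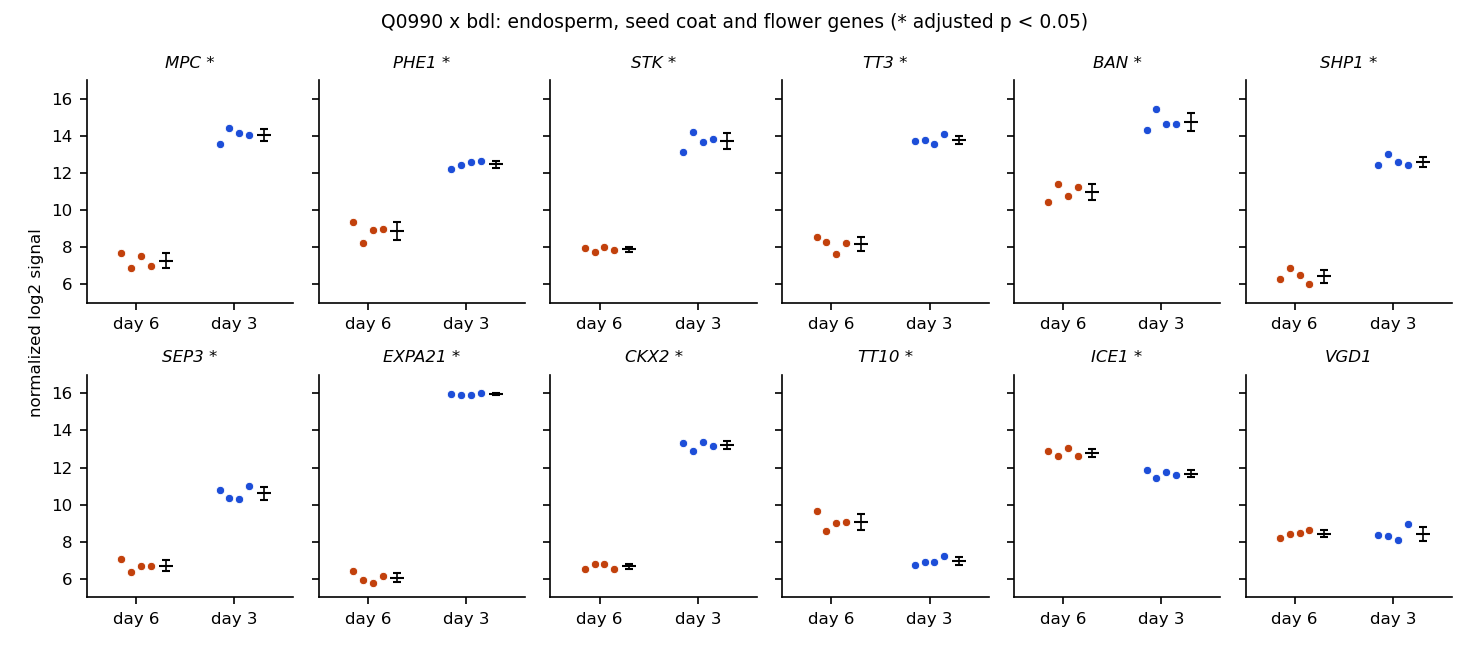
Normalized log2 signals of 12 endosperm, seed coat, flower and other genes in Q0990 x bdl embryos, with 4 points per day, day 6 left of day 3, and the mean with its SD beside each group. SHP1 lay between 6.02 and 6.85 on day 6 and between 12.40 and 12.99 on day 3, while VGD1 overlapped between the days.

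Seed filling genes were among the largest rises. CRA1, a 12S globulin storage protein gene, had signals of 13.06, 13.53, 11.60 and 13.19 on day 6, against 8.23, 8.06, 6.83 and 6.56 on day 3. That is 43-fold higher on day 6 (log2 5.42 ± 0.35 SE, adjusted p = 3.25e-06). SESA2, a 2S albumin gene, had 14.25, 14.13, 14.49 and 14.32 on day 6, against 9.59, 9.92, 9.75 and 9.84 on day 3, a 23-fold rise, and its neighbours SESA3 and SESA4 rose by 1.68 and 1.69. Of 7 tested storage protein genes 4 rose and none fell (median log2 change 1.68), with any 1 array left out too. The other 3, CRU2, CRU3 and AT1G03890, had changes of 0.045, -0.42 and -0.20 and are named here after their values were seen. SESA2, SESA3 and SESA4 are similar in sequence, and how far their reporters tell them apart is not known. SESA1 and PAP85, a 2S albumin and a vicilin-like gene, had values on day 6 alone, with SESA1 intensities of 8254, 3461, 4153 and 4235 before normalization.

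The oil body list had the highest median of the 44 lists. OLEO4 signals were 15.01, 15.23, 15.55 and 15.32 on day 6, against 8.23, 8.76, 8.44 and 8.38 on day 3, with a 113-fold rise (adjusted p = 6.97e-08), and OLEO1 had 13.26, 13.66, 13.69 and 13.59 on day 6, against 8.23, 8.42, 8.10 and 8.28 on day 3. OLEO2 was 21.6-fold higher. Oleosins cover oil bodies in seeds, and AT3G01570, annotated as an oleosin and outside the list, rose by 7.36. OLEO3 stood apart between replicates, with 8.79, 15.67, 15.75 and 15.68 on day 6, against 8.06, 9.58, 7.98 and 8.86 on day 3 (log2 change 5.35 ± 1.31 SE, adjusted p = 0.0123). Day 6 replicate 1 was low for it while the other 3 were high, the days overlapped, the change was 7.18 without that array, and the call was lost without day 6 replicate 3 (4.95, adjusted p = 0.0505). CLO2, a caleosin gene, overlapped between days (-0.055, adjusted p = 0.915). In all, 4 of 5 tested oil body genes rose and none fell (median 5.29).

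Of 28 tested fatty acid and oil synthesis genes 21 rose and none fell (median 1.75), and 19 to 22 rose with any 1 array left out. BCCP2, a subunit of the plastid acetyl-CoA carboxylase, had 12.75, 13.07, 12.82 and 12.97 on day 6, against 9.76, 9.50, 9.34 and 9.07 on day 3 (11.2-fold, adjusted p = 4.01e-06). ACP5, an acyl carrier protein gene, rose by 3.23 and KASIII, which starts fatty acid chains, by 3.19. ROD1, which feeds diacylglycerol with polyunsaturated acyl chains, had 7.47, 11.16, 11.42 and 11.72 on day 6, against 6.85, 7.68, 7.04 and 6.41 on day 3 (log2 3.45 ± 0.79 SE, adjusted p = 0.00883). As with OLEO3, day 6 replicate 1 was the low array, and the days overlapped through it. The acyltransferases of the last step of oil synthesis, TAG1 (DGAT1) and DGAT2, had changes of 0.016 ± 0.47 and 0.093 ± 0.41 (SE, adjusted p = 0.985 and 0.884). BCAT-1, a branched-chain aminotransferase gene, rose by 5.35, and FTM1, annotated as an acyl-ACP desaturase, by 5.95.

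Of the maturation regulators, some rose while LEC1 and LEC2 did not pass the test. ABI3 had 12.45, 12.46, 12.60 and 12.36 on day 6, against 8.94, 9.82, 8.87 and 9.12 on day 3, a 9.72-fold rise (adjusted p = 1.48e-05). FUS3 had 12.06, 11.37, 11.24 and 11.74 on day 6, against 9.57, 9.40, 9.36 and 9.92 on day 3 (log2 2.04, adjusted p = 4.42e-04). LEC1 had 13.12, 12.65, 13.70 and 12.90 on day 6, against 13.69, 13.15, 13.89 and 13.64 on day 3, and the days overlapped (-0.50 ± 0.27 SE, adjusted p = 0.194). LEC2 and ABI5, a bZIP factor of later maturation, had changes of 0.16 and 0.12 (adjusted p = 0.715 and 0.788). ABI4, an AP2 factor of abscisic acid and sugar response, rose by 2.74 and EEL, a bZIP factor of late embryo genes, by 2.33. AGL18, a MADS-box gene, fell by 1.59. In all, 6 of 18 tested regulators rose and 1 fell (median 0.19).

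Of 11 tested late embryogenesis abundant genes, many of which protect drying seeds, 1 rose and 3 fell (median -0.54, and -0.025 over those above the blank spots in all 8 signals). The 1 that rose, PER1, encodes a seed peroxiredoxin and no late embryogenesis abundant protein. It was at least 4.13-fold higher on day 6 and above the blank spots on no day 3 array. ERD14, a dehydrin gene, fell by 2.48 and LEA27 fell by 2.81, and the dehydrin gene RAB18 overlapped between days (-0.074, adjusted p = 0.895). The aquaporins of protein storage vacuoles rose: TIP3;1 had 10.31, 10.73, 10.89 and 10.90 on day 6, against 7.84, 8.21, 7.85 and 7.95 on day 3 (6.7-fold, adjusted p = 2.58e-05). TIP3;2 had 8.24, 11.43, 10.91 and 11.03 on day 6, against 7.29, 8.01, 7.30 and 7.43 on day 3 (log2 2.89 ± 0.61 SE, adjusted p = 0.00574), with day 6 replicate 1 again the low one. PIP2;3, a plasma membrane aquaporin gene with a close copy in the genome, fell by 4.14. Of 19 tested aquaporins 7 rose and 3 fell. CYS2, a cystatin gene, was 24.2-fold higher (adjusted p = 1.27e-05).

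Most nuclear photosynthesis genes tested rose. Of 49, 30 rose and 1 fell (median 1.2), and 27 to 35 rose with any 1 array left out. PETE1, a plastocyanin gene, had 14.66, 13.48, 14.19 and 13.62 on day 6, against 10.01, 10.92, 10.55 and 10.26 on day 3 (11.7-fold, adjusted p = 4.09e-05). PSBO2 and PSBO1, subunits of the water-splitting complex, rose by 3.22 and 2.42, and PSBW, a photosystem II subunit gene, by 2.62. RBCS2B, one of several near-identical Rubisco small subunit genes, was the 1 that fell (10.14, 8.49, 9.66 and 9.09 on day 6, against 12.60, 12.39, 12.88 and 12.64 on day 3). LHCB1.3, a light-harvesting protein gene, lay near the top of the scale on both days (15.93, 16.04, 16.04 and 15.98 on day 6, against 15.94, 16.04, 15.78 and 16.05 on day 3), where a difference would be compressed. PSAN, a photosystem I subunit gene, had a change of 0.0041 ± 0.36 SE.

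Of 19 tested genes of chlorophyll synthesis and plastid development 11 rose and none fell (median 1.1). PORB and PORC, the protochlorophyllide reductases, rose by 2.55 and 2.16, HEMA1, which starts tetrapyrrole synthesis, by 2.65, and GLK1, a regulator of chloroplast development, by 2.14 (adjusted p = 2.69e-04). PORB signals were 15.52, 15.98, 15.91 and 15.80 on day 6, against 13.44, 12.95, 13.31 and 13.34 on day 3. Of 24 tested plastid ribosomal protein genes 14 rose and none fell (median 1.12), 1 falling without day 6 replicate 1, with PRPS20 at 2.82. Of the cytosolic ribosomal protein genes, 12 of 220 rose and 30 fell (median -0.26). With 1 array left out, 4 to 11 of them rose and 17 to 35 fell. The rises moved most without day 3 replicate 2, 3 or 4 or day 6 replicate 3 or 4, and the falls without day 3 replicate 3 or 4.

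**Figure D2:**
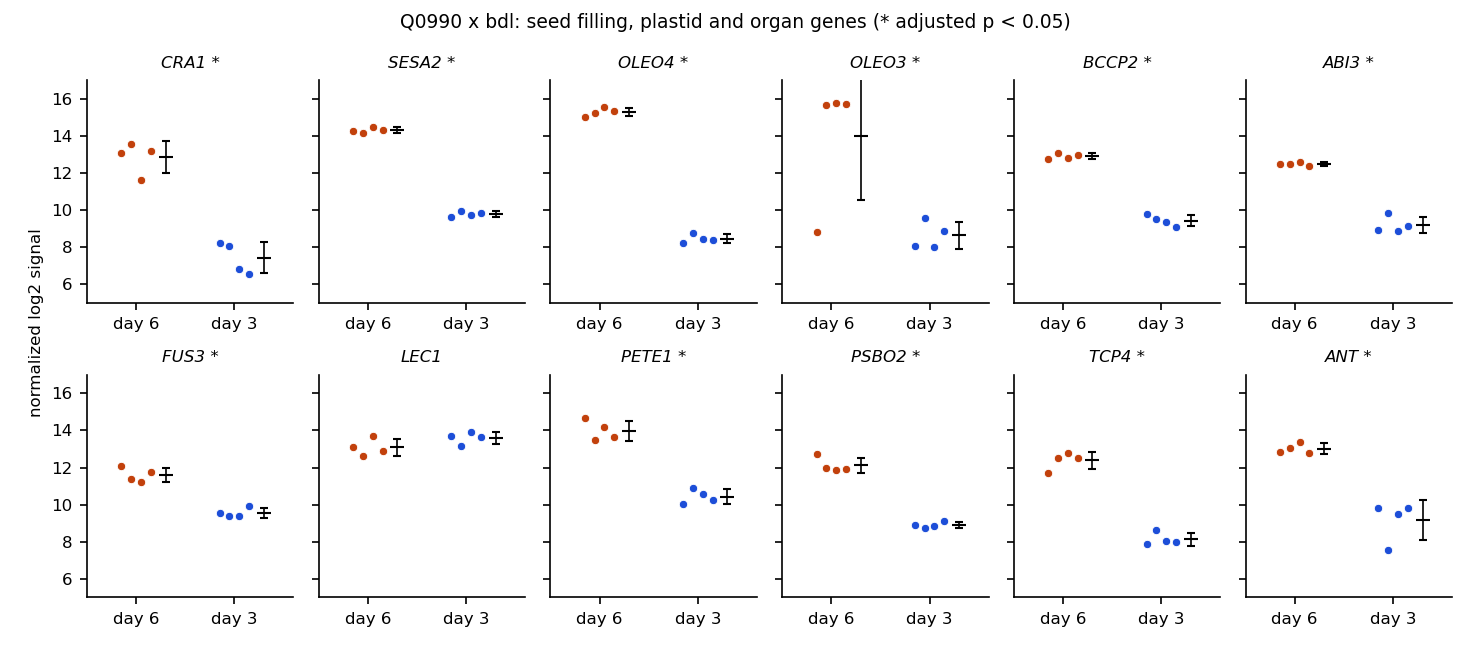
Normalized log2 signals of 12 seed filling, plastid and organ genes in Q0990 x bdl embryos, with 4 points per day, day 6 left of day 3, and the mean with its SD beside each group. OLEO4 lay between 15.01 and 15.55 on day 6 and between 8.23 and 8.76 on day 3; the single low point of OLEO3 on day 6 is replicate 1, and LEC1 overlapped.

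Organ genes rose in a larger share than any other patterning list tested here. Of 23 tested cotyledon and organ polarity genes 17 rose and none fell (median 1.64), and 15 to 17 rose with any 1 array left out, with 1 fall without day 6 replicate 2. TCP4, a factor of a class that limits organ growth, had 11.73, 12.54, 12.78 and 12.52 on day 6, against 7.86, 8.61, 8.05 and 7.96 on day 3 (19.3-fold, adjusted p = 5.69e-06). ANT, an AP2 factor that promotes organ growth, had 12.84, 13.07, 13.39 and 12.79 on day 6, against 9.83, 7.57, 9.48 and 9.84 on day 3, with day 3 replicate 2 the lowest. GRF5, a growth-regulating factor gene, rose by 3.66 and FIL, a YABBY gene of the abaxial side, by 3.44 (adjusted p = 9.36e-06). GRF2 and GRF3, also growth-regulating factor genes, had changes of 0.14 and 0.13 and overlapped. YAB3, the close relative of FIL, had values on day 6 alone.

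Shoot apex genes showed a mixed course. Of 17 tested shoot apex and boundary genes 5 rose and 2 fell (median 0.15), with 3 rises without day 3 replicate 1 or 4 or day 6 replicate 3 and 4 falls without day 6 replicate 1. CUC1, a cotyledon boundary gene, had 11.34, 11.29, 11.32 and 11.63 on day 6, against 10.15, 10.72, 10.36 and 10.42 on day 3 (log2 0.98, adjusted p = 0.0107), a call lost in the separate-channel model. UFO, an F-box gene of the apex, rose by 1.58. DRNL, an AP2 factor of early cotyledon initiation, fell by 2.49 (adjusted p = 1.97e-04). The stem cell genes STM and WUS had changes of 0.68 ± 0.32 and 0.036 ± 0.33 (SE, adjusted p = 0.137 and 0.946). KNAT1 and BOP2 had values on day 6 alone.

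At the root pole PLT1, an AP2 factor of the root stem cell niche, fell. Its signals were 7.08, 6.44, 6.29 and 6.67 on day 6, against 9.50, 9.17, 9.38 and 9.30 on day 3 (6.57-fold, adjusted p = 3.51e-05), above the blank spots on 1 of 4 day 6 arrays. PLT2, its close relative, fell by 1.29 and PLT3 rose by 1.22 (adjusted p = 0.00916 and 0.00455). WOX5, which marks the quiescent centre, had a change of -0.41, named here after its value was seen, and the other 10 of 14 tested root pole genes did not pass the test either (median -0.062). A further root pole gene rose without day 6 replicate 1.

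Vascular genes rose in part. Of 12 tested 5 rose and 1 fell (median 0.82), 2 falling without day 6 replicate 1. CLE41, a peptide gene of phloem, had 12.06, 11.64, 12.39 and 11.68 on day 6, against 8.05, 8.12, 8.36 and 8.05 on day 3 (13.9-fold, adjusted p = 3.67e-06), SUC2, the sucrose carrier of phloem companion cells, rose by 2.3, and PHB, an HD-ZIP gene of the adaxial side and the xylem, by 2.07. AHP6, a cytokinin signalling inhibitor of the early vascular tissue, had 9.13, 8.75, 9.16 and 8.92 on day 6, against 11.69, 12.67, 11.83 and 12.01 on day 3, an 8.33-fold fall (adjusted p = 3.27e-05). In the epidermis list 4 of 27 rose and 5 fell (median 0.35), near the 16.0% higher and 15% lower over all genes. The falls were 2 to 4 with any 1 array left out, with 2 or 3 without day 3 replicate 1, 3 or 4 or day 6 replicate 3 or 4. TMM, a receptor gene of stomatal patterning, rose by 2.98. ATML1, which specifies the epidermis, fell by 0.98 (adjusted p = 0.0178), a call lost without day 3 replicate 3 or 4 (changes of -1.13 to -0.83 over all 8 omissions). LTP1, a lipid transfer protein gene, fell by 3.91, with signals near the top of the scale on day 3. Of 71 tested lipid transfer protein genes 12 rose and 20 fell, with LTP3 at -5.28.

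**Figure D3:**
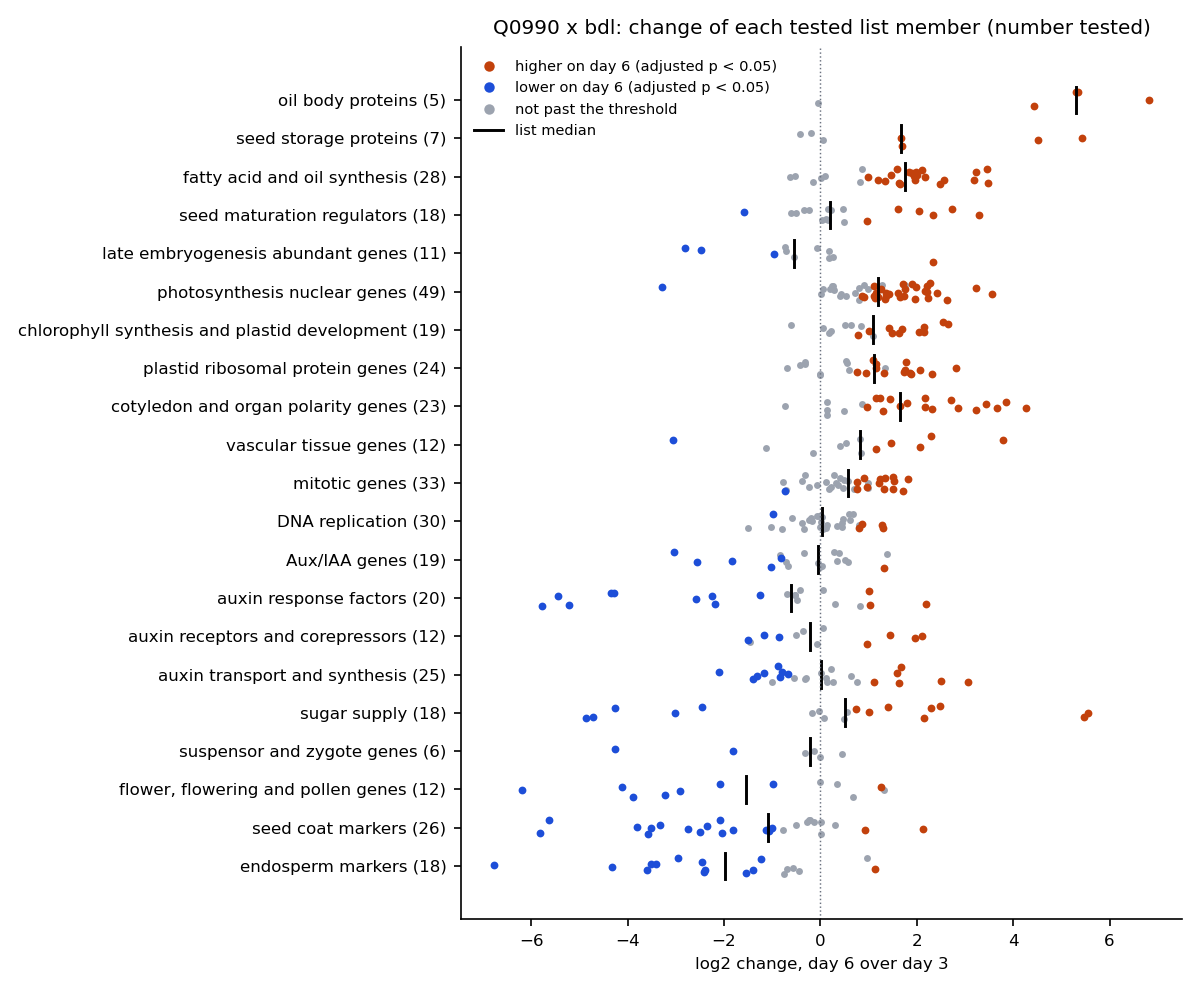
Log2 change, day 6 over day 3, of each tested member of 21 gene lists, with the number tested in parentheses, called rises and falls in colour and the list median as a black bar. Oil body, fatty acid and organ genes lie to the right, and endosperm, seed coat and flower genes to the left.

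Of the auxin receptor genes 4 rose, and 3 genes of the corepressor complex fell. TIR1 had 11.77, 10.80, 11.60 and 11.02 on day 6, against 9.38, 8.88, 9.35 and 9.75 on day 3 (3.88-fold, adjusted p = 9.99e-04) and AFB2 had 11.39, 9.65, 11.02 and 10.37 on day 6, against 8.17, 8.48, 8.79 and 8.59 on day 3 (4.29-fold, adjusted p = 0.00217), neither with any overlap. AFB1 rose by 1.44 and AFB3 by 0.96, though AFB3 lost its call without day 3 replicate 2, 3 or 4 or day 6 replicate 3 (changes of 0.79 to 1.14 over all 8 omissions). AFB4 and AFB5, the more distant receptors, overlapped between days (0.061 and -0.077). TPR1 and TPR4, which encode corepressors that Aux/IAA proteins recruit, changed by -1.51 and -1.17, and HDA19, a histone deacetylase of that complex, fell by 0.86. TPR4 lost its call without day 3 replicate 3 or 4 (-1.43 to -0.98 over all 8 omissions). HDA19 lost its call without day 3 replicate 3 or 4 or day 6 replicate 4 (-0.95 to -0.78 over all 8 omissions) and in the separate-channel model. In all, 4 of 12 rose and 3 fell (median -0.22), with 1 to 4 falls when 1 array was left out and 1 without day 3 replicate 3 or 4.

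Of 19 tested Aux/IAA genes other than BDL 5 fell and 1 rose, beside 15% lower and 16.0% higher over all genes. Taken without direction, that share is near the 31.0% called over all genes. The median was -0.058, and -0.72 over those above the blank spots in all 8 signals. There were 3 to 6 falls when 1 array was left out, with 3 without day 3 replicate 1, 3 or 4 or day 6 replicate 4. IAA16 had 9.06, 8.18, 8.51 and 8.56 on day 6, against 11.58, 11.51, 11.59 and 11.74 on day 3 (8.18-fold lower, adjusted p = 1.90e-05). IAA7 was at least 3.81-fold lower and above the blank spots on no day 6 array, and IAA3 fell by 1.83. IAA13, the nearest relative of BDL, fell by 1.02 (adjusted p = 0.0205), a call lost without day 3 replicate 1, 3 or 4 or day 6 replicate 3 or 4 (-1.26 to -0.85 over all 8 omissions). IAA6 was the 1 that rose (7.74, 7.90, 9.53 and 7.96 on day 6, against 7.08, 6.54, 7.17 and 7.11 on day 3), with day 6 replicate 3 far above the other 3, and its call was lost without day 3 replicate 3 or 4 (0.95 to 1.58 over all 8 omissions) and under an offset of 200. IAA27 had overlapping signals (-0.0043 ± 0.28 SE, adjusted p = 0.993).

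Of the 20 tested auxin response factors 9 fell and 3 rose (median -0.61), and 1 rose without day 3 replicate 3. Among the 11 above the blank spots in all 8 signals, 3 rose and 2 fell. ARF20 had 6.84, 6.71, 6.25 and 6.42 on day 6, against 12.30, 12.46, 12.38 and 12.17 on day 3, at least 32.3-fold lower on day 6, where it was above the blank spots on no array. ARF21, ARF12 and ARF14 were at least 27.3-fold, 13.2-fold and 8.41-fold lower. ARF12 to ARF15 and ARF20 to ARF22 are near-identical copies, all 7 fell, and their reporters may share signal, so they do not count as 7 separate observations. ARF6, which acts in organ growth and flower maturation, had 12.59, 12.51, 12.76 and 12.61 on day 6, against 9.84, 11.32, 10.10 and 10.42 on day 3 (4.59-fold higher, adjusted p = 8.58e-04). ARF1 and ARF9 rose by 1.00 and 1.03. ARF1 lost its call without day 3 replicate 3 or day 6 replicate 4 (0.88 to 1.18 over all 8 omissions), and ARF9 without day 3 replicate 1 or 3 (0.83 to 1.19 over all 8 omissions). ARF8, close to ARF6 in sequence, had a change of 0.056 (adjusted p = 0.889).

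Auxin transport and synthesis genes moved both ways, 6 of 25 up and 8 down (median 0.022), with 4 to 10 down when 1 array was left out and the lowest counts without day 3 replicate 1, 3 or 4 or day 6 replicate 2 or 4. Among the 15 above the blank spots in all 8 signals, 5 rose and 2 fell. PIN6, a PIN-family carrier gene, had 11.49, 12.12, 11.81 and 12.24 on day 6, against 9.51, 9.33, 8.56 and 8.01 on day 3 (8.34-fold, adjusted p = 1.20e-04). LAX2, an influx carrier gene of vascular tissue, rose by 2.51, PID, a kinase gene that directs PIN polarity, by 1.63, and TAA1, which makes the precursor of auxin, by 1.67. PIN3, a carrier gene of lateral transport, had 8.10, 7.46, 8.25 and 7.73 on day 6, against 9.97, 10.11, 10.06 and 9.79 on day 3 (4.28-fold lower, adjusted p = 2.46e-04). YUC3 and YUC10, which complete auxin synthesis, changed by -1.32 and -1.4, and TAR1, a relative of TAA1, fell by 1.17; YUC10 is also one of the endosperm markers.

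Among 10 tested MP targets and vascular initiation genes 3 rose and 1 fell (median 0.36, and 0.80 over those above the blank spots in all 8 signals). TMO5, a bHLH gene that MP activates, had 10.63, 11.15, 11.74 and 11.25 on day 6, against 8.82, 9.45, 8.33 and 8.97 on day 3 (4.91-fold, adjusted p = 6.56e-04). LOG3, a cytokinin activating enzyme gene downstream of it, rose by 1.38, and ZLL (AGO10), an Argonaute gene of vascular and apex cells, by 1.34. DRN, an AP2 factor of cotyledons that MP activates, had 7.63, 6.58, 6.59 and 6.29 on day 6, against 8.95, 8.67, 9.22 and 9.21 on day 3 (4.72-fold lower, adjusted p = 7.18e-04) and was above the blank spots on 1 of 4 day 6 arrays. TMO3, another MP target, had a change of 0.31 (adjusted p = 0.47). Of 12 tested GH3, SAUR and LBD genes 3 rose and none fell (median 0.47), 5 rising without day 6 replicate 3, SAUR72 by 2.83 and LBD4 by 2.45.

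**Figure D4:**
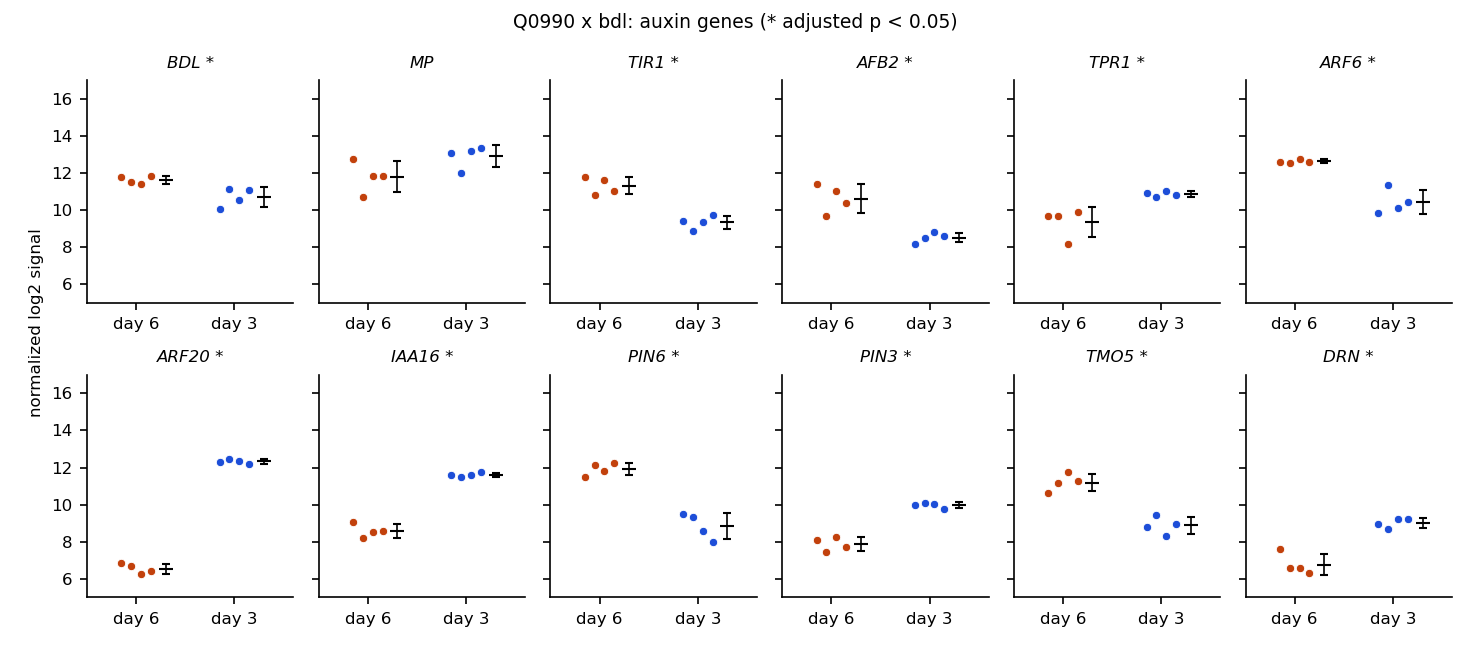
Normalized log2 signals of 12 auxin genes in Q0990 x bdl embryos, with 4 points per day, day 6 left of day 3, and the mean with its SD beside each group. TIR1, AFB2, ARF6, PIN6 and TMO5 lay higher on day 6 and ARF20, IAA16, PIN3 and DRN lower, without overlap, while MP overlapped.

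Of 33 tested mitotic genes 13 rose and 1 fell (median 0.57), 9 to 12 of them up with any 1 array left out. The D-type cyclins CYCD1;1 and CYCD3;2, which drive entry into the cycle, rose by 1.81 and 1.72, and the mitotic cyclin gene CYCB2;4 by 1.52. CDC2 (CDKA;1), the main cycle kinase gene, fell by 0.74 (adjusted p = 0.0465). That call was lost in 7 of the 8 omissions, all but that of day 6 replicate 4 (-0.88 to -0.57 over all 8 omissions), under an offset of 0 and with all 8 signals required above the blank spots. Of 30 tested DNA replication genes 4 rose and 1 fell (median 0.036), the rises near the 16.0% over all genes. There were 1 to 4 rises and 0 to 4 falls when 1 array was left out. CDC45, a helicase factor gene, changed by 1.27 and MCM2, a helicase subunit gene, had a change of 0.0022 (adjusted p = 0.0078 and 0.997). Of 47 tested histone genes 1 rose and 4 fell (median -0.20), with 0 to 4 rises and 1 to 5 falls when 1 array was left out. Every array but day 6 replicate 4 moved one of these replication or histone counts by more than 1.5 times.

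Sugar transporter genes moved in both directions. SWEET11, a sucrose exporter gene of seeds, had 12.35, 13.80, 12.31 and 13.43 on day 6, against 7.07, 7.63, 7.41 and 7.59 on day 3 (46.8-fold higher, adjusted p = 4.44e-06), while its close relative SWEET12 had 9.53, 9.23, 9.79 and 8.59 on day 6, against 13.75, 13.83, 14.39 and 14.03 on day 3 (26.3-fold lower, adjusted p = 3.42e-06). CWINV1, a cell wall invertase gene, rose by 5.48 and the sucrose synthase gene SUS2 by 2.49. SUS1 had 6.41, 8.88, 8.85 and 9.0 on day 6, against 11.92, 13.18, 12.17 and 12.94 on day 3 (-4.27, adjusted p = 3.27e-04), with day 6 replicate 1 below the other 3. SWEET9, the nectary sucrose exporter gene, was at least 16.8-fold lower and SWEET4 fell by 3.01. In all, 8 of 18 tested rose and 5 fell (median 0.52).

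Named hormone genes other than auxin's moved both ways. CKX2, a cytokinin oxidase gene active in endosperm, had 6.55, 6.79, 6.81 and 6.54 on day 6, against 13.33, 12.89, 13.38 and 13.18 on day 3, at least 58.9-fold lower on day 6, where it was above the blank spots on no array. IPT4, a cytokinin synthesis gene, was at least 2.1-fold lower, CYP735A2, which makes trans-zeatin, fell by 1.67, and the response regulator genes ARR16 and ARR10 rose by 1.6 and 1.36. In the cytokinin list 4 of 24 rose and 3 fell (median 0.14), near the 16.0% higher and 15% lower over all genes. GA20OX4 and GA20OX3, gibberellin synthesis genes, rose by 3.55 and 2.44, and GASA1, a gibberellin-regulated peptide gene, fell by 4.54 on the log2 scale. GASA4, of the same family, was at least 4.54-fold lower. Of 20 tested gibberellin genes 3 rose, also near the share over all genes, and 6 fell (median 0.094). With 1 array left out 3 to 7 were lower, the fewest without day 3 replicate 3 or 4. Among 26 abscisic acid genes 3 rose and 8 fell (median -0.31), 5 without day 3 replicate 4. The phosphatase genes ABI2 and HAB1, which hold the response back, changed by -2.82 and -2.37, AAO3, the last enzyme of synthesis, fell by 2.2, and the receptor gene PYL1 and the kinase gene SNRK2.3 rose by 1.48 and 1.31.

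The 15 largest falls included genes of cell walls and of small secreted proteins. EXPA21, an expansin gene, had 6.40, 5.95, 5.78 and 6.16 on day 6, against 15.96, 15.91, 15.91 and 16.00 on day 3, at least 397-fold lower on day 6. EXPA22 and EXPA23, with the next locus codes, were at least 189.6-fold and 226-fold lower, and EXP26, also next to them, fell by 7.49. These 4 are near-identical copies, and how far their reporters share signal is not known. Expansins loosen cell walls, and of 24 tested 9 fell and 4 rose (median 0.014), 2 rising without day 3 replicate 4, with EXPA5 at 2.69. Among the 12 expansin genes above the blank spots in all 8 signals, 3 rose and 2 fell. LCR24 and SCRL10, which encode small cysteine-rich peptides, were at least 320.1-fold and 304-fold lower. AT1G10190 and AT4G15050, both annotated with the domain PF03080, also fell, AT1G10190 at least 347-fold and AT4G15050 with a change of -8.54. AT2G02490, annotated as a hydroxyproline-rich glycoprotein, was at least 271-fold lower and AT2G30810, annotated as gibberellin-regulated, at least 219-fold. The other 6 of the 15 largest falls were PGL5 (-8.74), MLP328 (-8.66), AT1G66870, a glycosyl hydrolase family gene (-8.64), the pectin methylesterase inhibitor genes AT5G46960 (-8.34) and AT1G09370 (-8.15), and AT2G30560, a glycine-rich protein gene (-8.31). All 15 had day 6 signals between 5.78 and 7.66 and day 3 signals between 14.61 and 16.15, near the top of the scale. The endosperm, seed coat and flower markers fell over the same days, and their part in these falls was not tested.

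Of the 15 largest rises, AT1G09750, annotated with an aspartyl protease domain, came first. Its signals were 15.62, 15.69, 15.82 and 15.07 on day 6, against 7.01, 7.57, 7.04 and 7.61 on day 3, 303-fold higher on day 6 (adjusted p = 4.98e-08). PME5, a pectin methylesterase gene, had 14.08, 13.01, 12.22 and 13.30 on day 6, against 7.08, 6.70, 6.75 and 6.59 on day 3 and ATMYC1, a bHLH gene of epidermal patterning, 12.86, 11.91, 12.76 and 12.53 on day 6, against 7.50, 7.30, 7.79 and 6.96 on day 3. HB31, a zinc finger homeodomain gene, and TBL25, a wall acetylation family gene, were at least 24.8-fold and 26.9-fold higher and above the blank spots on no day 3 array. AT1G62220 and AT1G65090, of unknown function, rose by 6.54 and 5.66. The other 8 are the oil, storage, sugar and amino acid genes given above.

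Because both crosses were hybridized together, the day change of Q0990 x bdl could be set against that of Q0990 x Col-0 on the same arrays, for the 30 largest changes and for BDL and MP. Over all genes 7771 (43.7%) passed the test of this difference. The 30 were picked for a large change in the Q0990 x bdl signals, which by itself favours a larger change there than in Q0990 x Col-0, so their differences are a description and their tally is not read as a result. The change within each cross given here comes from the separate-channel model, so it can differ a little from the values above. Differences, intervals and adjusted p come from limma on the log2 ratios. All 30 changed in the same direction in both crosses. CRA1 changed by 5.38 in Q0990 x bdl and by 3.61 in Q0990 x Col-0, a difference of 1.77 (95% interval 1.27 to 2.28, adjusted p = 4.94e-04). OLEO1 changed by 5.24 and 4.41 (0.84, adjusted p = 5.12e-04), and HB31 by 5.32 and 4.26 (1.06, adjusted p = 0.00141). AT1G62220 rose less, by 6.44 against 8.50 (-2.05, adjusted p = 2.45e-04), and AT2G30560 fell more, -8.22 against -5.59 (-2.62, adjusted p = 1.16e-05). For OLEO4 and EXPA21 the difference was 0.12 (95% interval -0.11 to 0.35) and -0.033 (-0.34 to 0.27), neither past the threshold. BDL and MP had differences of 0.16 (-0.021 to 0.34, adjusted p = 0.136) and 0.16 (-0.12 to 0.44, adjusted p = 0.327). The correlation of the 2 channels within a spot, estimated over all genes, was 0.949.

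**Figure D5:**
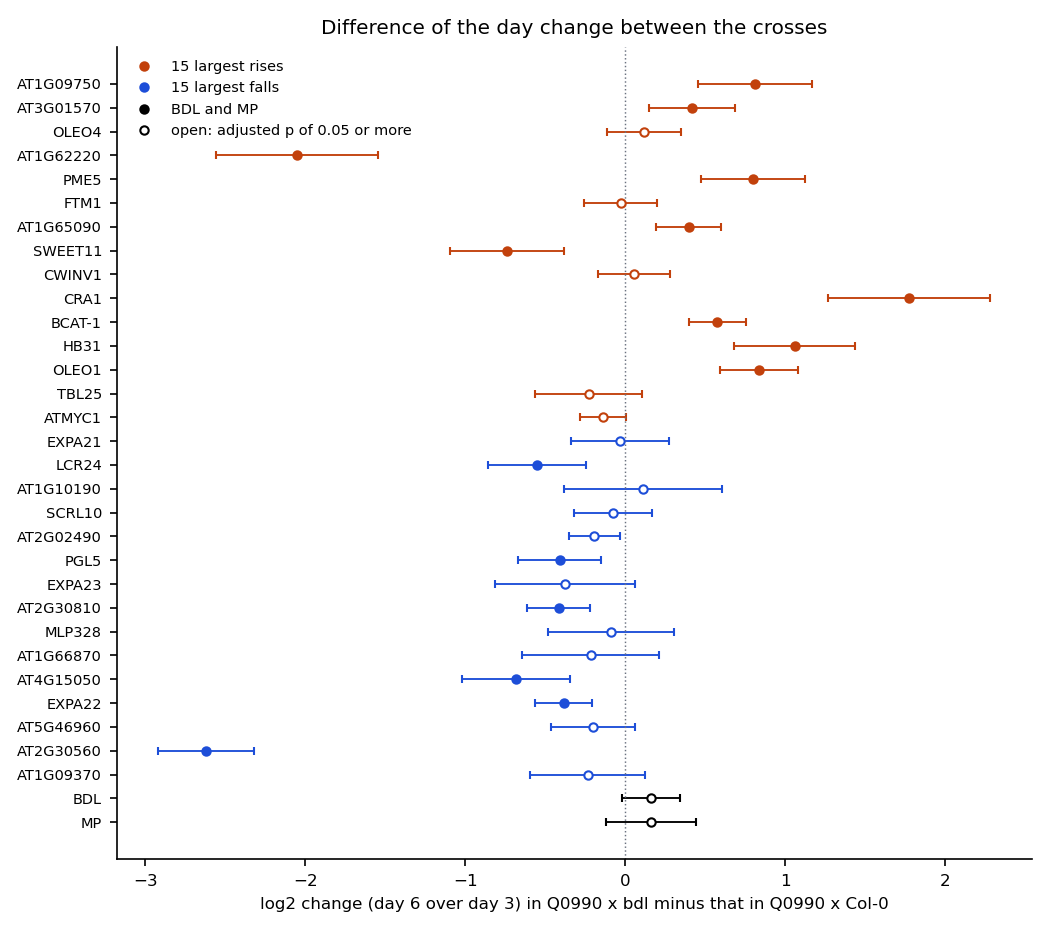
Difference of the log2 change between days, Q0990 x bdl minus Q0990 x Col-0, with its 95% interval, for the 15 largest rises, the 15 largest falls, and BDL and MP in Q0990 x bdl embryos. Filled points passed an adjusted p of 0.05; AT2G30560 at -2.62 and AT1G62220 at -2.05 lie farthest below 0, and CRA1 at 1.77 farthest above.

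Some genes had values on one day only and were not compared. On day 6 alone 3716 genes were measured, of which 267 were above the blank spots on all 4 arrays, and on day 3 alone 407 were, of which 191 were. The day 6 set included FAE1, the elongase of seed oil fatty acids (intensities 6684, 1154, 3626 and 2007 before normalization), MYB118, a regulator of endosperm maturation (4863, 1012, 2412 and 1543), and ATS1, a caleosin gene. The day 3 set included MINI3, an endosperm WRKY gene (228, 235, 328 and 308), and DME, the DNA glycosylase that activates imprinted genes (671, 624, 1182 and 1130). A spot without a value on a whole day has no known cause in the sources used here, so nothing is read from its absence.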

How the data were processed

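The authors deposited 1 table of linear spot intensity values per array, with a column for each cross, and the series text says that scanner output is lost. Scanner settings and background handling are not given in the sources used here. Per the labels' protocols, embryo RNA was amplified and then dye-labelled, with Q0990 x bdl in Cy5 in replicates 1 and 2 and in Cy3 in replicates 3 and 4 of each day. Intensities over 65535 in the Q0990 x bdl channel, found on day 6 replicates 2 and 4 and day 3 replicates 1 and 3, do not follow these labels, so the labelled dyes are in doubt. With the labelled dye as a term 231 of 17788 genes had an unadjusted dye p under 0.05 by limma. For the channel with the higher maximum 1594 had one, with 0 after adjustment in both cases. With that second term 6281 genes changed between days, against 5520 with the labelled dye.

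Of 27462 reporters, 21684 had values on all 8 arrays and 19708 exceeded the 95th percentile of that array's blank spots in at least 4 of the 8 Q0990 x bdl signals. Intensities plus an offset of 50 were put on the log2 scale and quantile normalized between arrays, reporters were averaged into 17788 genes, and day and dye were fitted with limma 3.58.1 in R 4.3.3, with Benjamini-Hochberg adjustment over all genes. Among 366 called genes with several reporters, 32 had reporters with changes of opposite sign. Of the genes, 7554 took a symbol from RefSeq's TAIR10.1 gene table and the others keep their locus code. On data simulated for this comparison over 17788 genes, 7 of 67 genes changed 2-fold, 52 of 67 changed 4-fold and 63 of 66 changed 8-fold were called, with 7 false calls. Far fewer genes were changed in the simulation than the 31.0% called in the data, which makes the adjusted threshold stricter there. These shares therefore do not carry over to the real comparison. Day changes of the 2 crosses were compared through log2 ratios normalized by loess, and the change within each cross came from the separate-channel model.

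Named genes are first the 15 largest rises and 15 largest falls that passed, did not overlap and were above the blanks on the brighter day. BDL and MP were added. Per list, up to 4 largest rises and 4 largest falls had to pass the adjusted p only, so some overlapped or were partly at the blanks. Up to 2 smallest changes per list came from members above the blanks in all 8 signals. The members and the 44 lists were chosen with earlier results of these data known. "At least" folds, for a gene above the blanks on no array of one day, are taken against the dimmest signal that exceeded the blanks on each such array, or against the gene itself where that is brighter. Array maxima of 63178 to 86085 lie near or above the 16-bit limit of 65535, so the brightest spots may be compressed. Median intensities were 225 to 446 on day 6 and 341 to 524 on day 3, and 54.7% to 80.3% and 85.2% to 98.2% of gene spots exceeded the blanks. These figures cover gene spots with a value, 26041 or 26042 per day 6 array and 22325 per day 3 array. The days therefore do not compare like for like in them. The number of arrays limits the precision. Nothing says whether samples came from separate plants beyond the count of biological replicates. The alternatives tried were median centring, a separate-channel model, normexp, other offsets, other filters, other dye terms, a replicate block and leaving out each array.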

Additional observations from a re-analysis of the deposited data

Results flagged for a closer look

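Of 370 groups of 4 signals of the genes named here, 26 held a sample whose gap to its nearest neighbour exceeded the 95% critical share of the range in Dixon's test, and chance gives about 1 in 20 groups. Day 6 replicate 1 lay below the other 3 signals of its day for OLEO3 (log2 signal 8.79, nearest 15.67), ROD1 (log2 signal 7.47, nearest 11.16), TIP3;2 (log2 signal 8.24, nearest 10.91), PSBO1 (log2 signal 12.74, nearest 13.45) and SUS1 (log2 signal 6.41, nearest 8.85). Day 6 replicate 1 lay above them for PSBO2 (log2 signal 12.73, nearest 11.95) and SWEET9 (log2 signal 6.87, nearest 6.43). Day 3 replicate 2 lay below the other 3 signals of its day for ANT (log2 signal 7.57, nearest 9.48), PHB (log2 signal 8.65, nearest 10.55), IAA6 (log2 signal 6.54, nearest 7.08), SUS2 (log2 signal 8.32, nearest 8.82), SWEET4 (log2 signal 9.30, nearest 10.33) and SEP2 (log2 signal 11.93, nearest 12.97). Day 3 replicate 2 lay above them for PSAN (log2 signal 10.25, nearest 9.66), PRPS20 (log2 signal 11.46, nearest 10.47) and AFB4 (log2 signal 9.34, nearest 8.82). Day 3 replicate 1 stood apart for AT3G01570 (log2 signal 6.81, below the others, nearest 8.10), AGL18 (log2 signal 9.27, above the others, nearest 9.04) and ARF12 (log2 signal 10.83, below the others, nearest 11.08). Day 3 replicate 4 stood apart for DGAT2 (log2 signal 11.39, below the others, nearest 11.71). Day 6 replicate 2 stood apart for AGL18 (log2 signal 7.86, above the others, nearest 7.40), TMM (log2 signal 9.68, below the others, nearest 10.18) and PHB (log2 signal 12.52, above the others, nearest 12.16). Day 6 replicate 3 stood apart for IAA6 (log2 signal 9.53, above the others, nearest 7.96) and TPR1 (log2 signal 8.17, below the others, nearest 9.67). Day 6 replicate 4 stood apart for CUC1 (log2 signal 11.63, above the others, nearest 11.34).

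The log2 change between days differed between Q0990 x bdl and Q0990 x Col-0 for 16 of the 30 largest changes, by limma on the ratios with Benjamini-Hochberg adjustment over all genes, where 43.7% of genes passed. These genes were picked for their change in Q0990 x bdl, which favours larger changes in that cross, so neither the count nor its direction is read as a result. It was higher in Q0990 x bdl for CRA1 (1.77, adjusted p = 4.94e-04), HB31 (1.06, adjusted p = 0.00141), OLEO1 (0.84, adjusted p = 5.12e-04), AT1G09750 (0.81, adjusted p = 0.00381), PME5 (0.80, adjusted p = 0.00259), BCAT-1 (0.57, adjusted p = 7.02e-04), AT3G01570 (0.42, adjusted p = 0.0208) and AT1G65090 (0.40, adjusted p = 0.0075). It was lower for AT2G30560 (-2.62, adjusted p = 1.16e-05), AT1G62220 (-2.05, adjusted p = 2.45e-04), SWEET11 (-0.74, adjusted p = 0.00577), AT4G15050 (-0.68, adjusted p = 0.0065), LCR24 (-0.55, adjusted p = 0.0108), AT2G30810 (-0.42, adjusted p = 0.00505), PGL5 (-0.41, adjusted p = 0.0195) and EXPA22 (-0.39, adjusted p = 0.00454).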

How the results depend on the processing

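Of 161 called genes named here, 147 kept call and direction under each of 18 settings that gave a value, and none reversed. Requiring all 8 signals above the blanks left 3522 called genes, 1355 lower and 1140 at least 2-fold lower, by construction from fewer genes (11531). Leaving out 1 array gave 3687 to 6003 called, 1808 to 3063 higher, 1879 to 2940 lower, 1765 to 2404 at least 2-fold higher and 1845 to 2448 at least 2-fold lower. The other settings called 5187 to 6281 genes. Under the filter on all 8 signals, list medians turned from below 0 to above it for abscisic acid (0.46), root pole (0.46), embryo identity (0.089) and xyloglucan endotransglucosylase genes (0.62), and other list medians moved with fewer members. AT2G02490 (-0.19) and EXPA23 (-0.38) differed between the crosses in the separate-channel model alone; the cause was not tested. Deviations of samples with the same replicate number correlated at -0.070, 0.15, -0.011 and 0.060 across genes. They were not compared with those of samples with different numbers, so they cannot show whether the numbers pair the samples. With the replicate block 5572 genes were called, MP among them (log2 change -1.13, adjusted p = 0.0173) and ALE1 (0.96, adjusted p = 0.047). The day 6 blank cutoffs limit falls: genes above the blanks on no day 6 array have a bound only.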

Other observations

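Families chosen after their values were seen are given as counts among tested genes, with called changes on day 6 against day 3. Of 55 genes annotated as MADS-box 25 fell and 2 rose (median log2 change -0.69). Of 37 invertase and pectin methylesterase inhibitor genes 18 fell, 8 of them at least 16-fold, and 7 rose. Of 23 genes with the PF03080 domain 10 fell and 3 rose. All 9 called genes among 13 annotated as oleosins rose (median 1.53), and 8 of 14 zinc finger homeobox genes rose while 2 fell (median 1.29). Of 310 pentatricopeptide repeat genes, many of which act on RNA of plastids and mitochondria, 37 rose and 16 fell, and of 412 F-box genes 68 fell and 30 rose. These counts stand beside 16.0% higher and 15% lower over all genes.

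Lists not described above moved as follows. Of 8 embryo identity genes 1 rose and 3 fell (median -0.64), and of 6 suspensor and zygote genes none rose and 2 fell (-0.23). Of 24 epigenetic regulators none rose and 6 fell (-0.24), of 18 genes of myrosin cells and glucosinolates 3 rose and 7 fell (-0.18), and of 18 xyloglucan endotransglucosylase genes 4 rose and 4 fell (-0.21). Of 30 WRKY genes 6 rose and 1 fell (0.24), of 55 kinesin genes 8 rose and 6 fell (0.17), of 12 cell cycle inhibitor genes 2 rose and 2 fell (0.22), of 12 heat shock and seed stress genes 3 rose and 4 fell (-0.15), and of 13 touch and wounding genes 2 rose and 2 fell (0.026). With 1 array left out, the WRKY rises went down to 3 (day 3 replicate 3) and the falls were 0 to 2, moved by any array but day 6 replicates 2 and 4. Kinesin rises went down to 4 (lower by over 1.5 times without day 3 replicate 1, 3 or 4 or day 6 replicate 3 or 4) and falls to 3 (day 3 replicate 3 or 4). Touch and wounding rises and falls each went down to 0, moved by any array but day 6 replicate 1. Epigenetic rises reached at most 2 (day 3 replicate 1 or day 6 replicate 2), and 1 cell cycle inhibitor rose without day 3 replicate 1, 3 or 4.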
